A study of Mus musculus with 12 samples.

Results

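Interferon-stimulated genes are the antiviral and immune genes that cells switch on after exposure to interferon. A list of 36 of them was followed in mouse D3 embryonic stem cells, an established line, grown with or without LIF and lithium. A gene was taken where a probe set carried its symbol alone in the array annotation, and the probe set with the highest mean log2 signal over all arrays stood for it. This gave 34 genes of the 18193 named on the array. Isg15 and Ifi44 had no probe set named for them alone. The list was written after results of LIF withdrawal in these arrays had been seen, with Rtp4 and Usp18 among the largest differences without lithium. For this reason the values of both withdrawal comparisons are given as descriptions, without p-values for the listed genes.

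The arrays were Affymetrix mouse expression arrays, 12 in all and 3 in each of 4 groups, measuring RNA from whole cultures. All groups were the same line kept for 7 days in serum-containing medium. The LIF group had 1000 units/ml of LIF, the LIF plus lithium group had the same LIF with lithium, the LIF-free group had neither, and the LIF-free plus lithium group had lithium alone. The labels give lithium as 50 nM, call the arrays of a group biological replicates 1 to 3, and state the same line for all. Lithium is more commonly given to cells at millimolar concentrations, and nothing here shows whether the labelled unit is right, so the dose behind the lithium comparisons is uncertain. The design text speaks of 3 independent experiments per replicate and does not say whether their RNA was pooled, so the replicate spread may leave out variation between cultures. Because RNA came from bulk cultures, more cells expressing a gene and more RNA per cell cannot be told apart. The 10 embryonic stem cell markers on the array were all bright enough to test, and 8 were called lower after LIF withdrawal, both without and with lithium. Over all tested genes 5.09% and 6.57% were called lower.

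LIF signals through the gp130 receptor and the kinase Jak1 to Stat3, and keeps mouse embryonic stem cells undifferentiated. Type I interferons act through the receptor chains Ifnar1 and Ifnar2 and the kinases Jak1 and Tyk2, which activate a complex that holds Stat2 and Irf9. That complex binds the interferon-stimulated response element (ISRE) in promoters, while the gamma-activated site (GAS) is the element known from the response to interferon gamma. Embryonic stem cells are known for a weak interferon response, which strengthens as they differentiate.

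Promoter sequences of the listed genes are shown to give the reader the element by which such genes are usually recognised. RefSeq promoters of the mouse build GRCm38.p6 were matched by symbol for 27 of the 36 genes. Dhx58, Zbp1, Usp18, Parp9, Parp14, Mx1, Mx2, Ifi27 and Rtp4 were the 9 without an entry. The ISRE was searched as GAAANNGAAA on both strands in the 250 bases before each annotated start. It occurred in 10 of 27 listed genes (37.0%) and in 936 of 27025 genes of the table (3.46%). The GAS was searched as TTCNNNGAA, which reads the same on both strands, and occurred in 5 of 27 listed genes (18.5%) and in 2197 of 27025 genes (8.13%). A match of each overlapped in 1 promoter of the listed genes.

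The 5 sequences below run 5′ to 3′ on the gene's strand and end at the base before the start. Capitals mark ISRE matches. Ifit1 (chr19:34640639-34640888, plus strand) has matches that begin 85 and 104 bases before the start. Oas1a (chr5:120907526-120907775, minus strand) has a pair of overlapping matches that begin 14 and 20 bases before it. Gbp2 (chr3:142620413-142620662, plus strand) and Ifitm2 (chr7:140955962-140956211, minus strand) have 1 match each, beginning 59 and 46 bases before the start. Xaf1 (chr11:72301379-72301628, plus strand) has none in this window, and is shown because its signal was lower without LIF. Ifitm2 is shown because it carries a match and its signals were not higher without LIF. A match is a run of letters and not a measured binding site.
Ifit1: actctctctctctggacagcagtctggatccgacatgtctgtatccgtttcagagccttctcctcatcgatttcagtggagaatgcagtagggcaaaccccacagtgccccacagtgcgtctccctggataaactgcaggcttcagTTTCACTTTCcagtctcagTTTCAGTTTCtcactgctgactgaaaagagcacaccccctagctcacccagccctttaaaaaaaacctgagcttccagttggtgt
Oas1a: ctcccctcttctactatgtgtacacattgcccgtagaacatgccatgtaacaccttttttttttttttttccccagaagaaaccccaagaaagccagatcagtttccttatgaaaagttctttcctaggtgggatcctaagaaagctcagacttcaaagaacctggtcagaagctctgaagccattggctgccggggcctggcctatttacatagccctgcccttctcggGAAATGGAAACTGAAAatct
Gbp2: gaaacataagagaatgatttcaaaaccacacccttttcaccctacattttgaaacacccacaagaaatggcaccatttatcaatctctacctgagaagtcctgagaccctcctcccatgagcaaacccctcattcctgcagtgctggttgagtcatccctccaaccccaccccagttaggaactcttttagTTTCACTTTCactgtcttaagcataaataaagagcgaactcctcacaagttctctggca
Ifitm2: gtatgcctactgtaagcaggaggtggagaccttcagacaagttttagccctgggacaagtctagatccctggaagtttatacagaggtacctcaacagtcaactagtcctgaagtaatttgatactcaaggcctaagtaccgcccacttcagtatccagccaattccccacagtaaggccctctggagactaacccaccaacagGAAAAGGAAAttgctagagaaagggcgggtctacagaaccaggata
Xaf1: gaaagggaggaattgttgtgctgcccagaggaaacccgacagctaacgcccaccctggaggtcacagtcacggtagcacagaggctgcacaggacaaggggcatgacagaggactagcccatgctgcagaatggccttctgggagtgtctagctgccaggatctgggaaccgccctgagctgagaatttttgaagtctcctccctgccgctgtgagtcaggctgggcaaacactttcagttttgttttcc

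The ISRE letters were in 6 of the 14 promoters (42.9%) of genes whose signals in all 6 LIF-free arrays exceeded those in all 6 arrays with LIF. They were in 3 of the 11 promoters (27.3%) of the other genes with a probe set. GAS letters were in 4 of the 14 (28.6%) and 1 of the 11 (9.09%). These counts were not tested, and the first group was chosen by the signals themselves. Several of the genes lie side by side in the RefSeq gene order. No protein-coding gene lies between Parp14 and Dtx3l, between Dtx3l and Parp9, between Ifit2 and Ifit3, or between neighbours in the run Ifitm2, Ifitm1, Ifitm3.

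The deposited values are MAS5 signals on a linear scale, in which each array had been scaled to a common trimmed mean. Median array signals ran from 10.5 to 19.3, and correlations between arrays from 0.875 to 0.953. Log2 was taken after values under 1 were set to 1. Only probe sets with a mean log2 signal over the 40th percentile (7.52 in signal units) entered the tests, which left 27022 probe sets and 32 of the 34 genes. Dhx58 (geometric mean signal 7.67) and Zbp1 (8.16) lay just inside this limit, and Mx1 (3.53) and Mx2 (3.01) lay outside it. Log2 changes that come from signals of a few units rest on values near background, and their size depends on the floor. A change is called where limma's Benjamini-Hochberg adjusted p, taken over all 27022, was under 0.05. For the listed genes a call in a withdrawal comparison is a description only, since such results had been seen when the list was written.

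**Figure D1:**
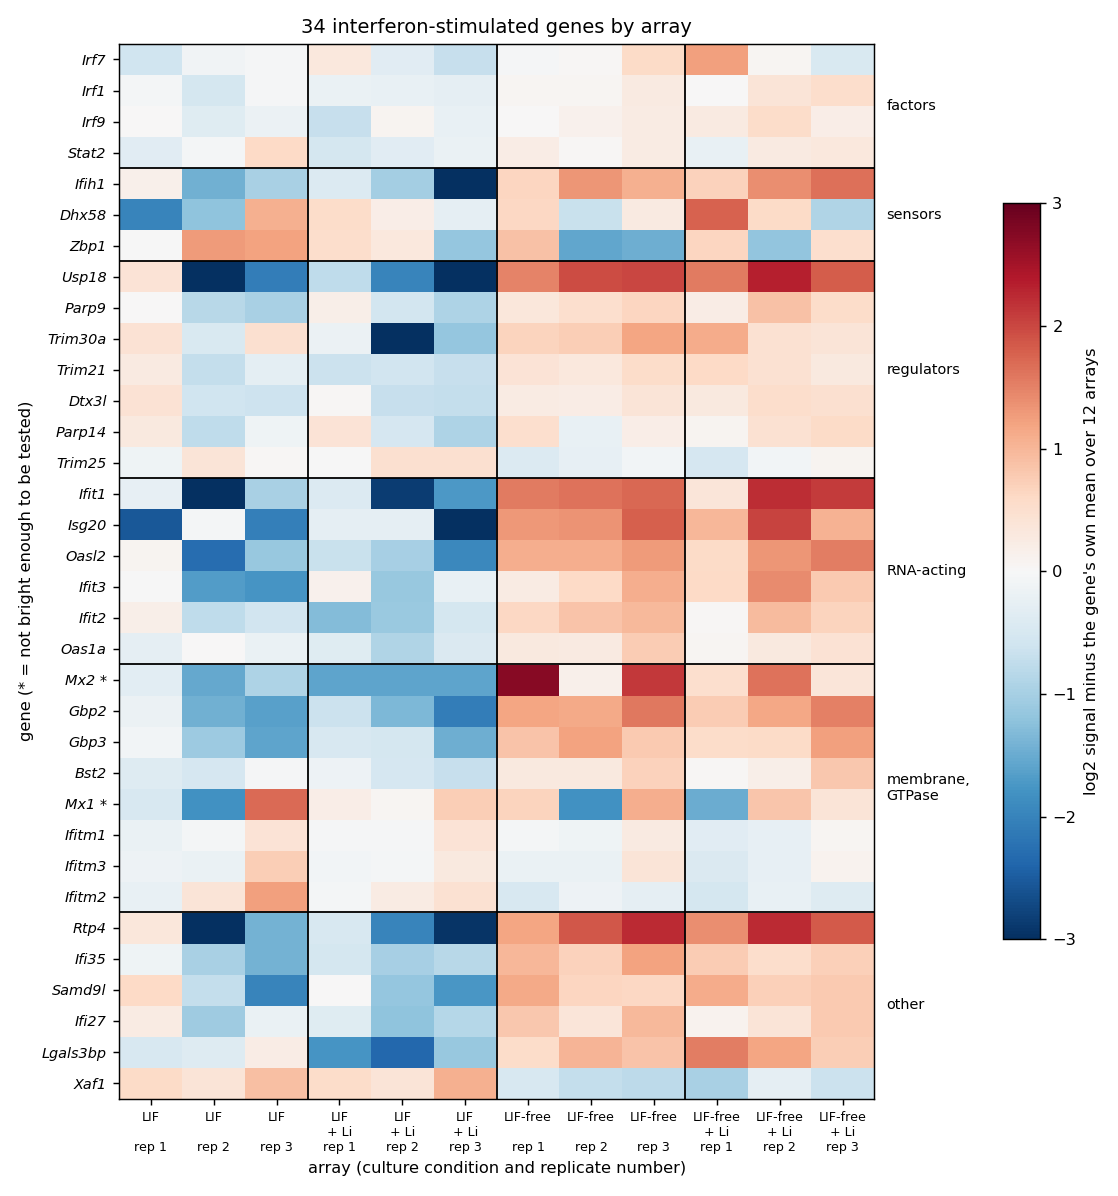
Log2 signal of each of the 34 genes (vertical axis, grouped by role) in each of the 12 arrays (horizontal axis), minus the gene's own mean over the 12 arrays, with red above and blue below that mean on a colour scale from -3 to 3. Most genes are blue to pale in the 6 arrays with LIF and red in the 6 LIF-free arrays, Xaf1 runs the other way, and replicate 1 of the LIF group is paler than replicates 2 and 3 for many genes.

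Without lithium, the median change of the 34 genes after LIF withdrawal was 0.76 on the log2 scale, against -0.05 over all 18193 genes. The 34 changes ran from -1.54 for Zbp1 to 3.55 for Rtp4, and 28 were above 0 (45.9% of all genes). The 3 LIF-free signals lay above the 3 LIF signals for 22 genes and below them for 1, where 12.9% of all genes lay above and 12.9% below. Limma called 10 of the 32 tested genes higher and 1 lower, where 7.47% of the 12737 tested genes were called higher and 5.09% lower. Same-numbered arrays of these groups deviated together, and with the replicate number as a block 16 were called higher and 2 lower, and 24.1% of all tested genes were called. The block added Trim21, Ifit2, Oas1a, Bst2, Ifi27 and Samd9l above and Ifitm2 below. These counts describe a list whose choice used the same comparison. Leaving out LIF-free replicate 2 reduced the calls to 3, leaving out replicate 2 or 3 of the LIF group to 4 each, and leaving out LIF-free replicate 1 or 3 to 5 each. Calls over all probe sets fell in the same fits, from 2515 to 1039, to 1075 and 1506, and to 1324 and 1569. Gbp2, Ifi35 and Xaf1 were called in all 12 fits that left out 1 array, Parp9 in 4 and Ifit3 in 3, and the others in 6 to 10.

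With lithium present throughout, the median change was 1.04, against 0.15 over all genes. The changes ran from -1.30 for Xaf1 to 3.96 for Usp18, and 28 were above 0 (59.2% of all genes). The LIF-free signals lay above for 23 genes (19.1% of all genes) and below for Xaf1 and Ifitm2 (12.7% of all genes). Limma called 15 genes higher and 1 lower, where 9.48% of tested genes were called higher and 6.57% lower. The calls came to 9 and 8 when replicate 2 or 3 of the LIF plus lithium group was left out, and to 6 and 9 when replicate 2 or 3 of the LIF-free plus lithium group was. Over all probe sets they went from 3368 to 1806, 1360, 1522 and 3131 in these fits. Gbp2, Ifi35, Xaf1, Usp18 and Lgals3bp were called in all 12 such fits, Ifi27 in 4 and Trim30a in 2, and the others in 8 to 11. Median centring of the arrays moved the median of all genes to 0.14 without lithium and to -0.20 with it. The listed genes' median minus that of all genes was 0.81 without lithium and 0.89 with lithium, and centring leaves these differences as they are.

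The 4 transcription factors had log2 changes from 0.09 to 0.62. Irf1, a factor induced by interferon gamma, gave 179, 129.5 and 184 with LIF, 165, 162 and 155 with LIF plus lithium, 196, 196 and 227 LIF-free, and 189, 244 and 271 LIF-free plus lithium (replicates 1, 2 and 3 in order, here and below). All 6 LIF-free signals were above all 6 signals with LIF, by a log2 change of 0.34 ± 0.18 (SE) without lithium and 0.53 ± 0.18 with it. Irf7, which amplifies interferon gene transcription, had signals of 8.04, 11.3 and 11.9 with LIF, 15.1, 9.65 and 7.58 with LIF plus lithium, 11.9, 12.4 and 17.9 LIF-free, and 28.6, 12.7 and 8.84 LIF-free plus lithium. Those groups overlapped.

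Irf9, the DNA-binding subunit of the complex that reads the ISRE, gave 60.8, 46.9 and 53.5 with LIF, 37.4, 64.1 and 51.5 with LIF plus lithium, 61.1, 66.2 and 71.3 LIF-free, and 72.5, 88.9 and 68.9 LIF-free plus lithium. The LIF-free values were higher by 0.31 ± 0.23 and, with lithium, by 0.62 ± 0.23, and each set of 3 lay above its own LIF set. Stat2, its partner in the complex, read 35.7, 43.1 and 68.5 with LIF, 31.3, 35.7 and 39.2 with LIF plus lithium, 52.2, 46.2 and 53.1 LIF-free, and 38.9, 54 and 55.8 LIF-free plus lithium. The groups overlapped in both comparisons, and LIF replicate 3 was the highest of the 12 arrays. None of the 4 factors was called in either withdrawal comparison, though 1 was called higher with lithium under the replicate block (26.8% of all tested genes called).

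Among the 3 nucleic acid sensors, Ifih1 differed most. Ifih1 encodes MDA5, which detects long double-stranded RNA in the cytosol, and its signals were 13.3, 4.4 and 6.07 with LIF, 9.05, 5.9 and 1.42 with LIF plus lithium, 18.7, 30.2 and 24.9 LIF-free, and 19.3, 31.3 and 37.7 LIF-free plus lithium. All 6 LIF-free arrays were above all 6 arrays with LIF, with changes of 1.77 ± 0.65 and 2.75 ± 0.65, and the second was called. The LIF signals are near background, and with 16 added to every signal before log2 the changes were 0.77 and 1.08 and both were called.

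Dhx58 encodes LGP2, a relative of MDA5 that modulates its signalling. Signals of 1.94, 3.3 and 16.1 with LIF, 11.3, 8.8 and 6.33 with LIF plus lithium, 11.8, 4.86 and 9.25 LIF-free, and 26.1, 11.4 and 4.09 LIF-free plus lithium overlapped between the groups. Zbp1, a sensor of Z-form nucleic acid, read 8.07, 19.9 and 18.9 with LIF, 11.7, 10.2 and 3.66 with LIF plus lithium, 15, 2.78 and 2.95 LIF-free, and 12.8, 3.59 and 11.6 LIF-free plus lithium. Those values were scattered within every group, and the change without lithium of -1.54 ± 0.79 stood beside 0.09 ± 0.79 with it. Under median centring and under quantile normalisation the signs of Dhx58 and Zbp1 with lithium turned.

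Of the 7 regulators that act through ubiquitin-like tags or ADP-ribose, Usp18 differed most. Usp18 removes Isg15 from proteins and restrains signalling at the interferon receptor. Its signals were 75.7, 5.8 and 13.6 with LIF, 33.9, 14.6 and 5.31 with LIF plus lithium, 160.4, 223 and 228 LIF-free, and 168, 290.1 and 203 LIF-free plus lithium. Every LIF-free array was at least as high as 160.4, and the highest array with LIF was LIF replicate 1 at 75.7. The changes were 3.47 ± 0.77 and 3.96 ± 0.77, and both were called. The call without lithium was lost without LIF replicate 2, LIF replicate 3 or LIF-free replicate 2.

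Trim30a, a ubiquitin ligase family member, gave 17.2, 9.18 and 17.7 with LIF, 11.2, 0.926 and 5.66 with LIF plus lithium, 20.2, 21.1 and 29.1 LIF-free, and 27.7, 17.4 and 16.6 LIF-free plus lithium. The groups without lithium differed by 0.72 ± 0.70, and those with lithium by 2.33 ± 0.70, which was called and where LIF plus lithium replicate 2 stood below the floor of 1. With 16 added these were 0.37 and 0.75. Parp9 and its partner Dtx3l, a ubiquitin ligase, are neighbours in the genome. Parp9 had means of 81.3 ± 32.2 (SD, n = 3) with LIF and 166 ± 18.2 LIF-free, and Dtx3l 76.8 ± 34.5 and 106 ± 6.59. Parp9 was called without lithium (1.10 ± 0.30), and Dtx3l, at 0.55 ± 0.28, was not. With lithium their changes were 0.98 and 0.90, and neither was called.

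Parp14, an ADP-ribosyltransferase, had changes of 0.36 ± 0.36 and 0.71 ± 0.36, with overlap in both. Trim21, an intracellular antibody receptor, was called with lithium (1.09 ± 0.24) and had 0.68 ± 0.24 without it. Trim25, the ubiquitin ligase that acts on the sensor RIG-I, had means of 835 ± 157 with LIF and 658 ± 75.5 LIF-free, a change of -0.33 ± 0.19 that was not called. With lithium its change was -0.49, which was called lower under the replicate block and not in the main fit.

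The 6 effectors that act on RNA all had positive changes in both comparisons, and 4 were called higher in each (7.47% and 9.48% of all tested genes). Ifit1 binds foreign RNA by its end structure, and gave 8.67, 0.326 and 5.31 with LIF, 7.81, 1.44 and 3.15 with LIF plus lithium, 30.7, 31.9 and 34 LIF-free, and 13.2, 48 and 44 LIF-free plus lithium. The LIF-free signals all lay above the LIF signals, by 3.17 ± 0.82 and 3.21 ± 0.82, and both changes were called. With 16 added, these were 1.24 and 1.27, and LIF replicate 2 read below 1 as deposited. Ifit2 and Ifit3, members of the same family, had changes of 1.21 ± 0.40 and 1.79 ± 0.52 without lithium, and of 1.53 ± 0.40 and 1.35 ± 0.52 with it. Ifit3 was called without lithium and Ifit2 with it. With 16 added, the change of Ifit3 without lithium was 0.78 and was not called, while Ifit2 without lithium, at 0.62, was.

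Isg20, an RNA exonuclease, had signals of 1.71, 9.51 and 2.38 with LIF, 8.21, 8.25 and 0.865 with LIF plus lithium, 24.6, 25.5 and 34.7 LIF-free, and 19.8, 40.4 and 20.4 LIF-free plus lithium. These groups were apart, with changes of 3.05 ± 0.82, which was called, and 2.64 ± 0.82, which was not. Adding 16 reduced the changes to 1.12 and 0.96, and both were then called. Oasl2, of the oligoadenylate synthetase family, gave 22.7, 4.41 and 9.79 with LIF, 13.5, 10.7 and 5.62 with LIF plus lithium, 45.8, 45.8 and 51.9 LIF-free, and 31.6, 53.3 and 62 LIF-free plus lithium. It was called in both comparisons, at 2.27 ± 0.53 and 2.33 ± 0.53, or 1.22 and 1.31 with 16 added. Oas1a, which makes the oligoadenylates that activate RNase L, had means of 126 ± 12.8 with LIF, 95 ± 17.7 with LIF plus lithium, 190.3 ± 38.4 LIF-free and 168 ± 21.5 LIF-free plus lithium (SD, n = 3). It was called with lithium, at 0.83 ± 0.19.

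**Figure D2:**
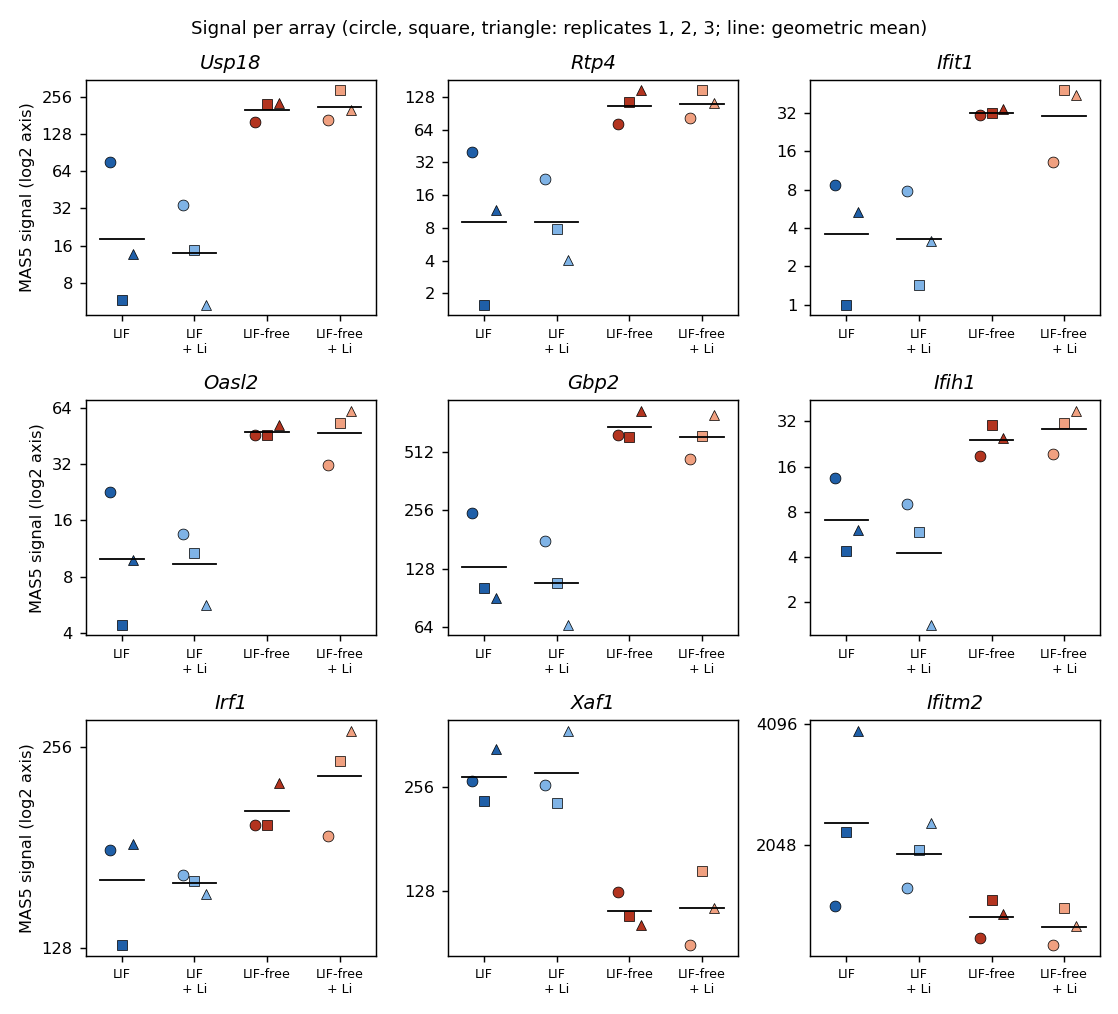
Signals of Usp18, Rtp4, Ifit1, Oasl2, Gbp2, Ifih1, Irf1, Xaf1 and Ifitm2 in each array (points, log vertical axis in MAS5 signal units) for the 4 groups, with the group's geometric mean as a line and values under 1 drawn at 1. For all but Xaf1 and Ifitm2 the 6 LIF-free points lie above the 6 points with LIF, Usp18 by 160.4 or more against 75.7 or less, and Xaf1 lies below.

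Of the 8 membrane and GTPase effectors, 6 were tested. Gbp2, a guanylate-binding protein that attacks the vacuoles of intracellular pathogens, gave 247, 102 and 90.0 with LIF, 178, 109 and 65.9 with LIF plus lithium, 627, 614 and 836 LIF-free, and 469.5, 622 and 791 LIF-free plus lithium. Its LIF-free signals were 469 or more, against 247 or less with LIF. The changes of 2.38 ± 0.39 and 2.50 ± 0.39 were called and held when any 1 array was left out, and a second Gbp2 probe set gave 2.49 and 2.15. Gbp3, 1 protein-coding gene away, was called in both, at 1.86 ± 0.40 and 1.60 ± 0.40.

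Bst2, which tethers budding viruses to the membrane, had means of 293 ± 51.5 with LIF and 486 ± 82.8 LIF-free, and was called with lithium (0.79 ± 0.22). Mx2, a dynamin-like GTPase, was too dim to test at 2.43, 1.04 and 1.59 with LIF, 0.907, 0.584 and 0.409 with LIF plus lithium, 19.9, 3.36 and 13.1 LIF-free, and 4.28, 9.32 and 3.87 LIF-free plus lithium. The values lay above the LIF values in both comparisons but stood at a few units. Mx1 had no probe signal above 11.4 in any array, and its groups overlapped.

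The Ifitm genes encode small membrane proteins that restrict virus entry and, in mouse, are also known from the germ line. Their signals were 1995 ± 448 for Ifitm1, 2528 ± 1271 for Ifitm2 and 2063 ± 814 for Ifitm3 with LIF, and 1939 ± 297, 1368 ± 147 and 1825 ± 449.6 LIF-free. Ifitm2 had changes of -0.77 ± 0.27 and -0.60 ± 0.27, with its LIF-free plus lithium signals below all LIF plus lithium signals. Ifitm1 had -0.03 ± 0.19 and -0.28 ± 0.19, and Ifitm3 -0.14 ± 0.25 and -0.24 ± 0.25, and the signs of both without lithium turned under median centring. None of the 3 was called in the main fit. Under the replicate block Ifitm2 was called lower without lithium, and 1 of the 3 was called lower with it.

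In the remaining group, Rtp4, a chaperone of membrane receptors, differed most. Its signals were 39.7, 1.58 and 11.7 with LIF, 22.5, 7.9 and 4.07 with LIF plus lithium, 71.4, 114 and 146 LIF-free, and 81.8, 146 and 113 LIF-free plus lithium. The 6 LIF-free arrays were at 71.4 or more and the 6 with LIF at 39.7 or less, for changes of 3.55 ± 0.90 and 3.62 ± 0.90, both called, and of 2.03 and 2.26 with 16 added. A second, dimmer Rtp4 probe set gave -2.18 and 0.10 and was not bright enough to test. Lgals3bp, a secreted glycoprotein, had 8.02, 8.59 and 13.1 with LIF, 3.26, 2.19 and 5.04 with LIF plus lithium, 16.5, 22.7 and 20.2 LIF-free, and 32.5, 25.3 and 18.6 LIF-free plus lithium. It was called with lithium at 2.91 ± 0.45 and was 1.02 ± 0.45 without it, or 1.08 and 0.47 with 16 added.

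Ifi35 was called in both comparisons and in every fit that left out 1 array, at 1.80 ± 0.27 and 1.46 ± 0.27, from means of 127 ± 59.4 with LIF and 417 ± 72.9 LIF-free. Ifi27 was called with lithium (1.23 ± 0.36), with 1.06 ± 0.36 without it. Samd9l, a translation regulator, had 1.50 ± 0.58 and 1.83 ± 0.58 and was called in neither without the block. Xaf1, which binds the apoptosis inhibitor XIAP, ran opposite to most of the list, from 275 ± 49.7 with LIF to 113 ± 12.9 LIF-free and from 286 ± 74.3 to 116 ± 28.4 with lithium. It was called lower in both comparisons (-1.28 ± 0.22 and -1.30 ± 0.22) and in every fit without 1 array, and a second Xaf1 probe set gave -2.28 and -1.58.

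The withdrawal comparisons without and with lithium use different arrays, so the genes' changes can be set side by side. Of the 34 genes, 27 were positive in both and 5 negative in both, where 6727 and 5758 of all 18193 genes were, and 22 had LIF-free signals above in both (64.7%, against 9.03% of all genes). Limma called 8 of 32 in both, and 1206 of all 12737 tested genes. Over these 34 genes the changes correlated at r = 0.899, and over all 18193 genes at 0.498. These are correlations across genes, which are not independent replicates, and same-numbered arrays may share a culture day. The list was written with large withdrawal changes in view, and the 18193 genes include many too dim to test. The correlations are therefore not compared like with like. All 6 LIF-free arrays were above all 6 arrays with LIF for 18 of the 34 (52.9%, against 7.6% of all genes) and below for 1 (2.94%, against 5.46%).

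**Figure D3:**
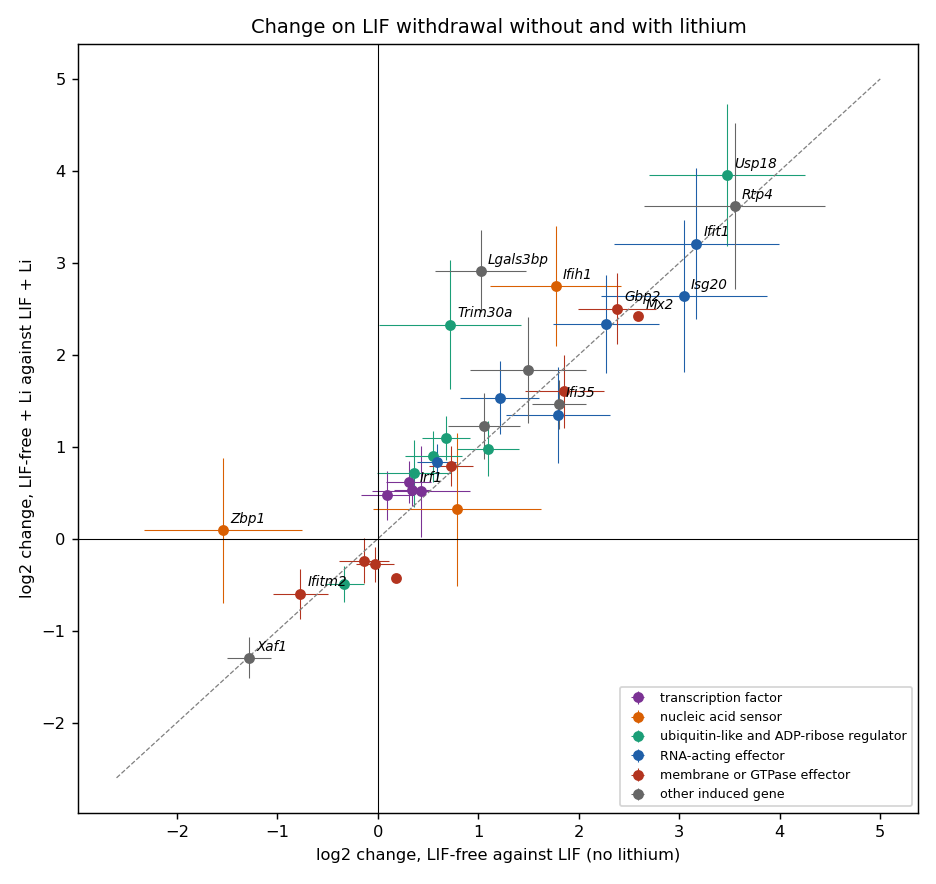
Log2 change after LIF withdrawal without lithium (horizontal axis) against that with lithium (vertical axis) for the 34 genes, with error bars of 1 SE for the 32 tested genes. The points lie along the diagonal (r = 0.899), from Xaf1 at the lower left to Usp18 and Rtp4 at the upper right.

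The lithium comparisons did not choose the list, but they use the same LIF and LIF-free arrays as the comparison that did, so their p-values are not independent of that choice. With LIF present, limma called 0 of the 32 genes after lithium, and 0 of 27022 probe sets (0%). At an unadjusted p under 0.05 there were 2 of 32 genes, both lower, where 2.77% of all probe sets passed. Lgals3bp had a change of -1.55 ± 0.45 (limma adjusted p = 0.999), with all 3 signals under lithium below the 3 without. Trim30a had -1.82 ± 0.70 (limma adjusted p = 0.999), with overlap. The median of the 34 genes was -0.13, against -0.06 over all genes. Of the 34 changes 11 were above 0 (41.9% of all genes) and 23 below. Under median centring, which moved the median of all genes to 0.31, 23 were above 0. Signals with lithium lay below for Oas1a, Lgals3bp and Mx2 (6.13% of all genes) and above for 0 (1.89% of all genes).

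Without LIF, lithium gave 0 calls and 0 genes at an unadjusted p under 0.05 (1.28% of all probe sets). The median was 0.003, against 0.03 over all genes, with 17 above 0 (55.7% of all genes) and 17 below. Under median centring 8 were above 0. The signals of the groups without LIF were apart for 0 of the 34 genes, where 4.47% of all genes were higher with lithium and 2.51% lower. Changes were 0.09 ± 0.77 for Usp18, 0.06 ± 0.90 for Rtp4, 0.03 ± 0.22 for Xaf1 and -0.16 ± 0.39 for Gbp2, and those of Usp18, Rtp4 and Xaf1 turned sign under median centring. The difference between the lithium responses, tested as the interaction, gave 0 calls and 1 gene at an unadjusted p under 0.05 (2.46% of all probe sets). That gene was Lgals3bp, at 1.89 ± 0.64 (limma adjusted p = 0.999). The median of the interaction was 0.10, against 0.10 over all genes.

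These tests were not sharp enough to show small changes. The 95% intervals lay wholly within a 2-fold change for 16 of 32 genes with LIF, 16 without LIF and 8 for the interaction. Their median half-widths were 0.81, 0.81 and 1.15 on the log2 scale. A gene without a call is therefore not shown to be unresponsive to lithium.

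**Figure D4:**
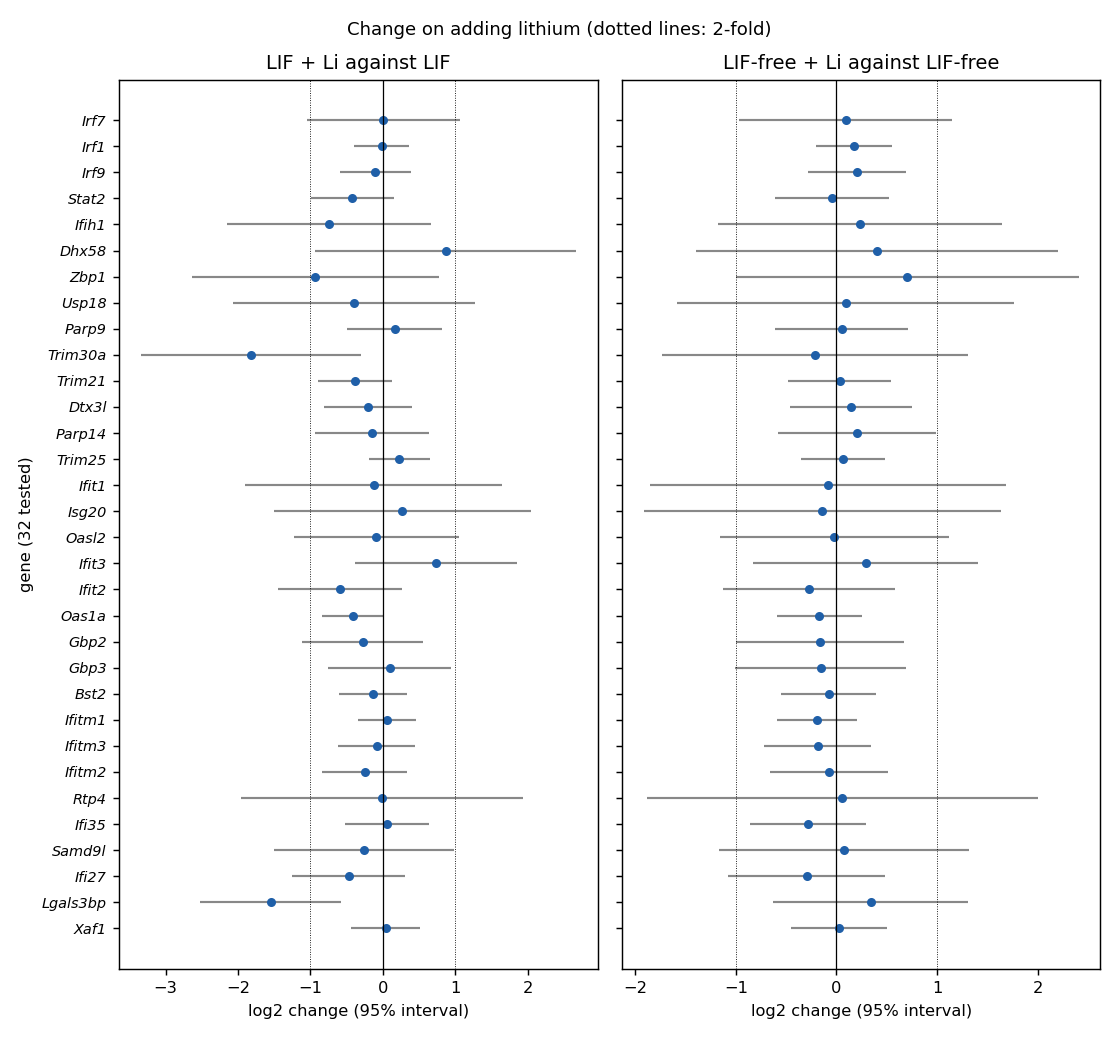
Log2 change after lithium with LIF and without LIF (horizontal axis) for each tested gene (vertical axis), with points for the estimates and lines for 95% intervals. All intervals without LIF cross 0, and with LIF those of Lgals3bp and Trim30a lie below 0, though neither passed adjustment over all probe sets.

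Genes of the pathway outside the list were read from lists written with the results for the listed genes known. Of 10 interferon genes with a probe set, 2 (Ifnb1 and Ifna5) were bright enough to test and 0 were called in either withdrawal, with signals from 0.168 to 24.6 in all arrays. Without lithium 5 of the 10 changes were above 0 (median -0.07), and with it all 10 were (median 0.90, against 0.15 over all genes). Over all genes 45.9% and 59.2% of changes were above 0. Most of these changes rest on signals near background. Genes named for this and the next lists rest on limma p-values adjusted over all probe sets. Of 14 tested receptor, kinase and feedback genes, 1 was called higher without lithium (7.14%, against 12.6% of all tested genes called) and 4 with lithium (28.6%, against 16.1%), and 0 were called lower. Their median changes were 0.25 and 0.24. With the replicate block, under which 24.1% of all tested genes were called, 3 were called higher and 1 lower without lithium. Il10rb, a chain shared by the receptors for interferon lambda and interleukin 10, rose by 1.22 ± 0.22 (limma adjusted p = 0.00558) and by 1.19 ± 0.22 (0.0048) with lithium. Ifnar1 rose after withdrawal with lithium present by 0.85 ± 0.17 (limma adjusted p = 0.00727) and had 0.58 ± 0.17 without it (0.0516, and 0.0167 with the block). Ifnar2 had 0.25 ± 0.27 and 0.14 ± 0.27 (limma adjusted p = 0.622 and 0.795). The kinase Jak2 and the signalling inhibitor Pias1 rose after withdrawal with lithium present, by 0.64 ± 0.18 and 0.81 ± 0.18 (limma adjusted p = 0.036 and 0.0108). They had 0.36 ± 0.18 and 0.59 ± 0.18 without it (limma adjusted p = 0.254 and 0.0514, and 0.169 and 0.0243 with the block).

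Of 12 tested genes that sense nucleic acid or relay that signal to interferon genes, 3 were called higher without lithium (25%, against 12.6% of all tested genes called), and 4 higher and 1 lower with it (41.7%, against 16.1%). Their median changes were 0.36 and 0.67. With the block, where the share over all tested genes was 24.1%, the counts without lithium were 4 higher and 1 lower. Ikbke, a kinase that activates interferon regulatory factors, rose by 2.75 ± 0.48 (limma adjusted p = 0.00451) and 1.93 ± 0.48 (0.0207). Its signals were 3.61, 1.79 and 3.48 with LIF and 16.5, 30.0 and 13.9 LIF-free. The LIF signals lay under the brightness limit of 7.52, so Ikbke entered the tests through its brighter groups. The size of its change rests on values near background. Ddx58, which encodes RIG-I, rose by 1.05 ± 0.25 (0.0201) and 1.12 ± 0.25 (0.0121). Myd88, the adaptor of most Toll-like receptors, rose by 0.77 ± 0.17 (0.016) and 0.67 ± 0.17 (0.0237). Mavs, the mitochondrial adaptor of RIG-I and MDA5, fell after withdrawal with lithium present, at -1.50 ± 0.33 (limma adjusted p = 0.0115). It had -0.91 ± 0.33 without lithium (limma adjusted p = 0.1025, and 0.0374 with the block).

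Of 30 other tested interferon-induced genes, 6 were called higher and 2 lower without lithium (26.7%, against 12.6% of all tested genes), and 8 higher and 2 lower with it (33.3%, against 16.1%). Their medians were 0.73 and 0.89. With the block (24.1% of all tested genes), 10 were higher and 2 lower without lithium. After withdrawal with lithium present, Iigp1, an immunity-related GTPase, rose by 2.42 ± 0.50, Gbp7 by 1.96 ± 0.41 and Rsad2, which encodes viperin, by 2.02 ± 0.44 (limma adjusted p = 0.00877, 0.00945 and 0.0114). Their changes without lithium were 1.33 ± 0.50, 1.81 ± 0.41 and 1.16 ± 0.44 (limma adjusted p = 0.118, 0.0174 and 0.123), and of these only that of Gbp7 was called. Phf11d fell by 1.28 on the log2 scale (limma adjusted p = 0.00541), and had -1.10 ± 0.24 without lithium (0.0151). Across these lists lithium itself gave 0 calls, with LIF or without, and the interaction gave 0 as well.

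Other measures moved with LIF. Summed signals of 11 visceral endoderm and trophoblast markers were 3302 to 5617 in the LIF arrays and 10830 to 13394 LIF-free. Most of each sum came from Krt8 (means 1845 with LIF and 5447 LIF-free) and Krt18 (2209 and 5990). Gata4 had 31.8 and 31.4, and Afp, Apoa1 and Elf5 were too dim to test. Without lithium 10 of the 11 changes were above 0 (45.9% of all genes). Of 8 tested markers, 3 were called higher without lithium and 4 with it. Over all tested genes, for these and the marker counts below, 7.47% were called higher and 5.09% lower without lithium, and 9.48% and 6.57% with it. The 10 embryonic stem cell markers summed to 19695 to 31176 with LIF and 12024 to 15067 LIF-free. The 11 fibroblast and feeder markers overlapped, at 169 to 349.8 with LIF and 208 to 467 LIF-free, with 0 of 8 called without lithium and 1 with it. With the replicate block, which took the calls of all tested genes without lithium to 24.1%, 3 fibroblast markers were called higher and 1 lower, and 7 of 8 endoderm and trophoblast markers higher. The 13 blood and macrophage markers summed to 731 to 1395 with LIF and 379 to 537 LIF-free. Most of these sums came from Laptm5 (means 647 and 131) and Cd68 (267 and 152), while Csf1r went from 34.4 to 125. Among the 6 tested, Laptm5 and Coro1a were called lower and Csf1r higher without lithium. Of the 13 changes 4 were above 0 without lithium and 7 with it (45.9% and 59.2% of all genes). The defining markers Ptprc, Lyz2, Itgam and Cd14 read 17.6 or less in all 12 arrays. The 8 endothelial markers summed to 194 to 304 with LIF and 98.5 to 159.5 LIF-free. Without lithium 2 of the 6 tested (Pecam1 and Eng) were called lower, and with it 1 was called higher and 1 lower. With lithium the same sums were 3041 to 4985 with LIF and 10763 to 13195 LIF-free for endoderm and trophoblast, and 811 to 1537 and 366 to 576 for blood. The ratio of the actin control probe sets at the RNA's 3′ and 5′ ends was 1.77 with LIF and 1.55 LIF-free on average, with overlapping arrays, and that of Gapdh was 0.816 (0.81 to 0.82) and 0.764 (0.739 to 0.80), which did not overlap. With lithium the Gapdh ratio was 0.832 with LIF and 0.783 LIF-free, with overlap. The part of these measures in the listed genes' differences was not tested.

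The replicates of 1 group were not alike. Replicate 1 gave the highest signal of its group for 18 of 34 genes with LIF (52.9%, against 35.6% of tested genes) and for 22 with LIF plus lithium (64.7%, against 36.3%). Replicate 3 was the highest for 24 in the LIF-free group (70.6%, against 39.1%). The median over the 34 genes of log2 signal minus each gene's mean was -0.07, -0.72 and -0.20 in LIF replicates 1, 2 and 3, and -0.23, -0.56 and -0.78 with LIF plus lithium. It was 0.59, 0.30 and 0.73 LIF-free, and 0.43, 0.54 and 0.54 LIF-free plus lithium, so the groups with and without LIF did not overlap. Among the LIF arrays, replicate 1 also had the highest summed endoderm and trophoblast markers (5617, against 3302 and 4064), mostly from Krt8 and Krt18. The fibroblast markers of replicate 1 summed highest as well (349.8, against 169 and 215). The part of these markers in the values of replicate 1 was not tested.

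**Figure D5:**
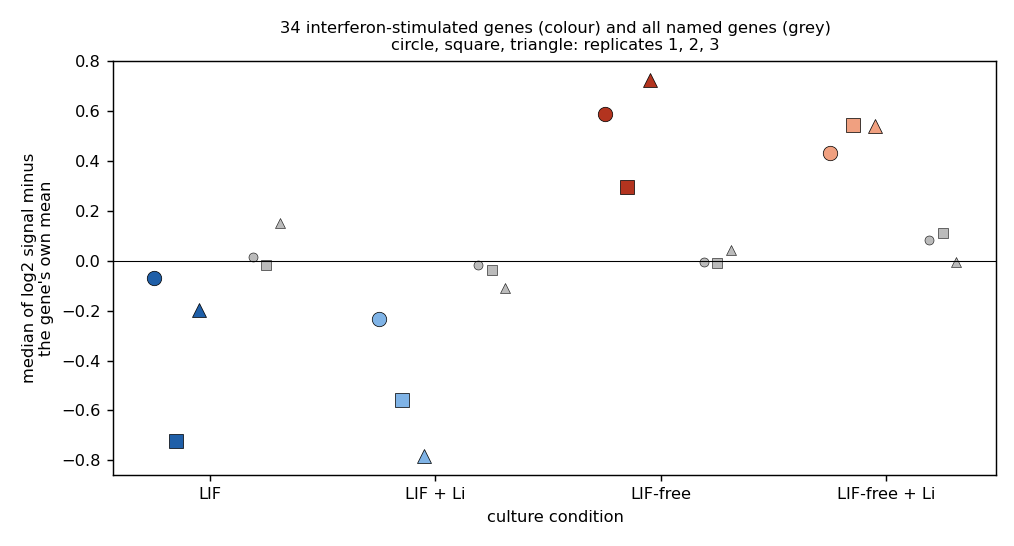
Median over the 34 genes of log2 signal minus each gene's own mean over 12 arrays (vertical axis) for each array (coloured points, with all named genes in grey), by group (horizontal axis). The 6 arrays with LIF lie between -0.78 and -0.07 and the 6 LIF-free arrays between 0.30 and 0.73, with LIF replicate 1 the highest of the arrays with LIF.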

How the data were processed

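The values are the authors' deposited MAS5 signal intensities per probe set, made per the submitters' processing notes with MAS5; settings are not given in the sources used here. From these intensity values, values under 1 were set to 1 and log2 was taken; 64 control probe sets were left out, and the 40th percentile limit on mean log2 signal left 27022 of 45037 (0.146% of their values were floored). By the array annotation 34945 probe sets have 1 gene symbol, 932 several and 9160 none. Limma 3.58.1 in R 4.3.3 (lmFit, eBayes with an intensity trend) fitted a mean per group to all 12 arrays (8 residual degrees of freedom). Tests were two-sided with Benjamini-Hochberg adjustment over 27022 probe sets, threshold 0.05, and were tested on simulated data. The number of arrays limits precision; the median 95% half-width was 0.63. Plots used Python 3.11.15 with matplotlib 3.10.9.

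Members and lists were chosen with earlier results of these data known. Signals are given array by array for members with an absolute log2 change of at least 2 in either withdrawal and for all tested factors and sensors, and at most 4 called genes are named per list, with Ifnar1 and Ifnar2; another gene of this rule is not reported here. Deviations of same-numbered arrays correlated at 0.438, 0.137 and 0.339 for the groups without lithium and at 0.499, 0.139 and 0.321 for those with LIF. Each of these arrays matched its own number best, which counts as paired. The deviations correlated at 0.462, 0.111 and 0.30 for the groups lacking LIF and at 0.451, 0.0972 and 0.379 for the lithium groups. In both of the latter pairs of groups replicate 2 did not match its own number best, which does not count as paired. The alternatives were quantile normalisation, median centring, a pseudocount of 16, other filters, other choices of probe set, the replicate block, no trend, array weights, fits to the compared arrays only, and leaving out each array.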

Additional observations from a re-analysis of the deposited data

How the results depend on the processing

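Without lithium, 11 listed genes were called. The count was 7 with no filter, 7 with no intensity trend, 6 with only the compared arrays, 18 with the replicate block, 23 with array weights, and 3 to 16 when 1 array was left out. Over all probe sets 2515 were called, and in the same order 1990, 1674, 1168, 5260 and 7870. In the fits that gave 3 and 16 they were 1039 and 3950. With lithium, 16 were called, 9 under median centring, 23 with the replicate block, and 6 to 21 when 1 array was left out. Replicate 2 of the lithium groups did not pair best with its own number. The block called 26.8% of all tested genes. Over all probe sets the calls were 3368, with 1490 under median centring and 5938 with the block. They were 1522 and 4311 in the fits that gave 6 and 21. The median change with lithium was 0.69 under median centring and 0.74 with a pseudocount of 16. Median centring gave medians of 0.24 for lithium with LIF and -0.43 for the interaction, where it moved the median of all genes to 0.31 and -0.43. When 1 array was left out, the medians ran from 0.65 to 1.00 and from 0.95 to 1.22 for withdrawal without and with lithium. For single genes, 3372 values kept their side of the threshold, 81 passed it newly and 125 no longer passed it. Direction changed for 0 values called in either fit. Some uncalled values, counted among the 3372, did change direction. The cause of these shifts was not tested, beyond fewer arrays in the fit. Calls among the listed genes for lithium and the interaction were 0 in every alternative run. Signals near background limit Ifit1, Isg20, Mx2 and the sensors, and Ikbke outside the list.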

Other observations

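Where a listed gene had several probe sets, the others did not always follow the brightest. Further Ifi35 sets gave withdrawal changes of 1.12 and 0.50 without lithium and 1.54 and 0.01 with it. A second Ifi27 set gave 2.12 and 0.89, a second Trim30a set 0.05 and 1.70, and a second Stat2 set -0.21 and 0.87 (without and with lithium). Ifi44l, an interferon-induced gene outside the list, had 3 probe sets, none bright enough to test, with no signal above 9.98 in any array.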
